A study of Rattus norvegicus with 16 samples.

Results

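Integrin and laminin subunits were followed across rat L4/L5 dorsal root ganglia (DRG), the ganglia that hold the cell bodies of sciatic sensory neurons. The members were all genes of the array annotation whose only symbol is that of an integrin alpha, an integrin beta or a laminin chain. They numbered 32 of 14217 genes, with 15 integrin alpha, 7 integrin beta and 10 laminin subunits, and had 48 of the 31042 probe sets tested. Each gene was read by the probe set with the highest mean over the 16 arrays.

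Laminins are heterotrimers of an alpha, a beta and a gamma chain that assemble into the sheet of the basement membrane, which in peripheral nerve and ganglion surrounds Schwann cells, satellite glia, blood vessels and the perineurium. Integrins are transmembrane heterodimers of an alpha and a beta chain that bind such matrices, or counter-receptors on other cells, and couple them to the actin cytoskeleton. In peripheral nerve, laminins that hold the alpha 2 chain bind integrins of the beta 1 chain and dystroglycan on the Schwann cell, and both are required there for axonal sorting and myelination.

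Sprague-Dawley rats underwent spared nerve injury (SNI), in which the common peroneal and tibial branches of the sciatic nerve are tied and cut and the sural branch is left intact. Adult males were 2 months old and the young rats were operated on at 10 days of age, with ganglia taken 7 days after surgery in both. The groups were adult SNI (3 arrays), adult contralateral (3), adult sham (3), young SNI (2), young contralateral (2) and young sham (3). SNI ganglia were ipsilateral to the cut, contralateral ganglia came from the other side of the operated rats, and in sham rats the nerve was exposed without being cut. Each array held RNA pooled from 3 adult rats (6 ganglia) or 4 young rats (8 ganglia), so that the spread within a group is the spread between pools. Of 18 arrays, 2 had been left out by the authors as outliers, 1 young SNI and 1 young contralateral. Ganglia are mixtures of cells, in which fewer cells of a type and less RNA per cell cannot be told apart.

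Values are log2 intensities after GC-RMA, a background correction and normalisation for Affymetrix arrays, and ran between 0.38 and 15.79 with array medians between 5.13 and 5.47. Sensory neuron markers averaged between 12.58 and 13.17 in all arrays but young SNI replicate 2, where they averaged 11.56. That array also held genes of central glia and neurons, with a mean of 11.88 over the 6 markers, against 2.33 to 3.13 in the other 15 arrays. Comparisons that use young SNI are given below with both arrays and, for the members described, without this one. Xist, a transcript of the inactive X chromosome of females, was between 2.32 and 2.57 in the 9 adult arrays, and in young rats was 2.35 and 2.36 in contralateral replicate 1 and sham replicate 2 and between 9.77 and 12.05 in the other 5. The number of rats in a pool changed with age and cannot be told apart from it. The sex of the young rats is not given, and Xist was high in most but not all of the young arrays. Sex thus varied in part with age.

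Markers of injured sensory neurons separated the adult groups as labelled but not the young ones. The mean of Atf3, a transcription factor induced by axotomy, Sprr1a, a growth-associated protein, and Gal, the neuropeptide galanin, was 11.37, 11.81 and 11.75 in adult SNI arrays, against 5.36, 5.59 and 5.17 in adult contralateral and 6.06, 6.57 and 6.11 in adult sham arrays. In young rats it was 7.76 and 10.84 in arrays labelled SNI, against 9.65 and 4.99 in those labelled contralateral and 10.18, 11.59 and 7.32 in those labelled sham. All young control arrays but contralateral replicate 2 thus stood above every adult control, and the young SNI arrays lay within the range of the young controls. The groups below are those of the labels.

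Of the 32 members, 18 exceeded 4 on the log2 scale in 2 arrays or more, and the other 14 lay near the floor of the scale. Above it were the laminin chains Lama2, Lama4, Lama5, Lamb1, Lamb2 and Lamc1, the laminin-binding alpha chains Itga3, Itga6 and Itga7, the alpha chains Itga1, Itga11, Itgae and Itgav, and the beta chains Itgb1, Itgb3, Itgb4, Itgb5 and Itgb6. Near the floor were the leukocyte chains Itgal, Itgam, Itgax and Itgad with Itgb2 and Itgb7, the alpha chains Itga2b, Itga5, Itga8 and Itga9, and the laminin chains Lama1, Lama3, Lamb3 and Lamc3.

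Control ganglia differed between the ages in the laminin subunits. Lama2, Lamb1 and Lamc1, the chains of the main laminin of the Schwann cell basement membrane, were lower in adult than in young control ganglia by more than the spread between pools. No integrin subunit passed the same test by its chosen probe set, although further probe sets of Itga6 did. The comparison set the mean of adult sham and contralateral arrays against the same mean in young rats, by limma with Benjamini-Hochberg adjustment over all probe sets and a threshold of 0.05, as in every comparison below.

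The promoters of these 3 genes are shown because the genes were lower together. They were taken from RefSeq on GRCr8 and span 250 bases before to 50 after the start of the gene, which lies at chr1:19491896-19492195 (plus strand) for Lama2, chr6:53562846-53563145 (plus strand) for Lamb1 and chr13:68051937-68052236 (minus strand) for Lamc1. Capitals mark the GC box, GGGCGG on either strand, a sequence that Sp family factors bind.
Lama2: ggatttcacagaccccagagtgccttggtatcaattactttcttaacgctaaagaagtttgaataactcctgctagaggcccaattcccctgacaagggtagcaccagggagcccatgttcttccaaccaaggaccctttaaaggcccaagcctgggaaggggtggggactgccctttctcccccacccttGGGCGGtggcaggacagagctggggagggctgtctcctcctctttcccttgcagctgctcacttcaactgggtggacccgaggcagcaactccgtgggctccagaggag
Lamb1: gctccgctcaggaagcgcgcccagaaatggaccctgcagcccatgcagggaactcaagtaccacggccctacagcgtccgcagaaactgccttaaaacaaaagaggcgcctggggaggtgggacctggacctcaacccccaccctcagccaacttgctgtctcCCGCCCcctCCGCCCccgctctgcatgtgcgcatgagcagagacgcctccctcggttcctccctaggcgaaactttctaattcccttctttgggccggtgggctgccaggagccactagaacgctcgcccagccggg
Lamc1: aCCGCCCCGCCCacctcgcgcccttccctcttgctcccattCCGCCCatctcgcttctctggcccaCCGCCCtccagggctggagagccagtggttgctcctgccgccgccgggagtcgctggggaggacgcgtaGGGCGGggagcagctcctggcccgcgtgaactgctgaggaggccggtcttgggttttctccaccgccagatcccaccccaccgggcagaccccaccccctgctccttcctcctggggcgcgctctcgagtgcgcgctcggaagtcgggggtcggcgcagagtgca
The GC box occurred once in the Lama2 window, at 2 places in that of Lamb1 and at 5 in that of Lamc1, where the first 2 share a base. It was present in 33.1% of the 33469 RefSeq promoters of this length and in 13 of the 24 members that had a promoter in the table. The TATA box TATAAA was in none of the 3 windows, against 14.2% of all promoters, and CCAAT occurred once, in Lama2, against 37.5%. G and C made up 57.0% of the Lama2 window, 63.7% of the Lamb1 window and 71.7% of the Lamc1 window, against a median of 51.7%.

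Lama2, the alpha 2 chain, was 10.02, 10.18 and 10.66 in adult contralateral arrays and 10.32, 10.06 and 11.22 in adult sham arrays. In young rats it was 11.68 and 11.64 in contralateral arrays and 11.98, 11.82 and 11.70 in sham arrays. All adult control arrays were below all young ones, and the highest adult value was that of sham replicate 3. The means were 10.41 ± 0.46 in adult (SD, n = 6) and 11.76 ± 0.14 in young controls (SD, n = 5), a log2 difference of -1.34 (SE 0.24, limma adjusted p = 0.0124), or 2.53-fold lower in adults.

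Lamc1, the gamma 1 chain present in most laminins, was 10.14, 10.51 and 10.82 in adult contralateral arrays and 10.74, 10.30 and 11.29 in adult sham arrays. In young rats it was 11.79 and 11.71 in contralateral and 12.16, 11.93 and 11.59 in sham arrays. Again no adult control array reached the lowest young one, although sham replicate 3 came near it. The log2 difference was -1.19 (SE 0.22, limma adjusted p = 0.0165). A separate Lamc1 probe set differed by -1.64 (SE 0.29, limma adjusted p = 0.0122), with adult controls between 7.74 and 9.08 and young controls between 9.34 and 10.36.

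Lamb1, the beta 1 chain, was 10.84, 11.31 and 11.43 in adult contralateral arrays and 11.15, 10.98 and 11.95 in adult sham arrays. In young rats it was 12.60 and 12.26 in contralateral and 12.35, 12.79 and 12.25 in sham arrays. The groups did not overlap here either, and the log2 difference was -1.17 (SE 0.25, limma adjusted p = 0.0267).

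**Figure D1:**
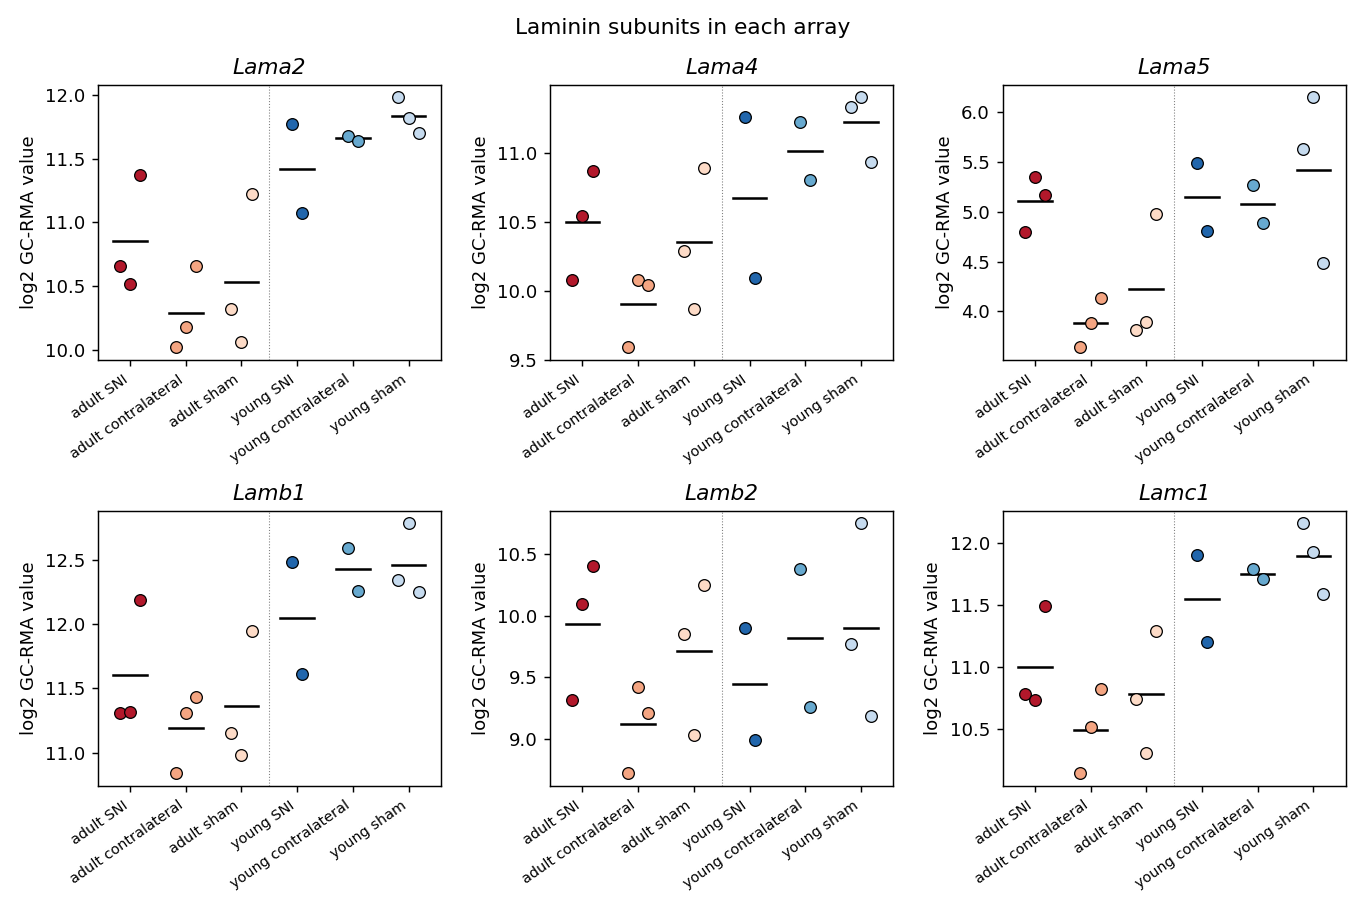
Each panel plots the log2 GC-RMA value (vertical axis) of a laminin subunit in each of the 16 arrays, by group (horizontal axis), with points for arrays and bars for group means. In Lama2, Lamb1 and Lamc1 all 6 adult control arrays lie below all 5 young control arrays, whereas in Lama4, Lama5 and Lamb2 the ages overlap.

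The 3 members called were 9.38% of the 32, and all 3 were lower in adults. Over all probe sets 4.36% were called in this comparison, 2.54% lower and 1.82% higher in adults, and with 1 probe set per gene 5.25% of genes were called and 2.67% were lower. Adult controls lay wholly below young controls in the same 3 members, against 3.19% of genes, and wholly above them in Itga2b and Lama3, both near the floor, against 5.02%. The median log2 difference was -0.72 over the 10 laminin subunits, of which 7 were below 0, and 0.01 over the 22 integrin subunits, against 0.03 over all genes. Unadjusted p was under 0.05 for 8 of the 32 members, against 17.8% of all probe sets.

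The other laminin chains above the floor gave values that did not pass. Lama4, the alpha 4 chain, found in vessel walls, averaged 10.13 ± 0.44 in adult (SD, n = 6) and 11.14 ± 0.26 in young controls (SD, n = 5), a log2 difference of -0.99 (SE 0.25, limma adjusted p = 0.0515). Adult sham replicate 3 was the array that overlapped, at 10.89 against a lowest young value of 10.80. Lama5, the alpha 5 chain, averaged 4.06 ± 0.48 in adult (SD, n = 6) and 5.29 ± 0.64 in young controls (SD, n = 5), close to the floor in adults, and differed by -1.20 (SE 0.31, limma adjusted p = 0.0557). Lamb2, a beta chain found at the neuromuscular synapse, differed by -0.45 (SE 0.36), less than its spread between pools.

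Among the integrins, the values nearest the threshold were those of the laminin receptors. Itga6, the alpha 6 chain, which pairs with beta 1 or beta 4 to bind laminin, was 12.18, 12.46 and 12.28 in adult contralateral and 12.20, 11.99 and 13.00 in adult sham arrays. In young rats it was 13.22 and 12.84 in contralateral and 13.07, 13.43 and 12.88 in sham arrays, so that adult sham replicate 3 alone overlapped. Its log2 difference was -0.73 (SE 0.20, limma adjusted p = 0.0738). A pair of further Itga6 probe sets passed, at -1.49 (SE 0.31, limma adjusted p = 0.0244) and -1.24 (SE 0.27, limma adjusted p = 0.0304), and the remaining Itga6 probe set lay near the floor. Whether Itga6 was called thus depended on the probe set. Itgb1, the common beta 1 chain, averaged 11.62 ± 0.25 in adult (SD, n = 6) and 12.10 ± 0.13 in young controls (SD, n = 5), a difference of -0.47 (SE 0.15, limma adjusted p = 0.111).

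Itga7, an alpha chain of laminin receptors in muscle and Schwann cells, differed by -0.33 (SE 0.26), and Itga3, another laminin-binding chain, by 0.06 (SE 0.17). Itgav, the alpha chain of vitronectin receptors, differed by 0.06 (SE 0.19). Itgb4, which pairs with alpha 6 in laminin receptors of Schwann cells and epithelia, differed by 0.03 (SE 0.29). Itgb6 was higher in adults, at 7.70 ± 0.38 in adult (SD, n = 6) and 6.82 ± 0.59 in young controls (SD, n = 5). Itgb3 was lower, at 6.68 ± 0.94 in adult (SD, n = 6) and 7.37 ± 0.20 in young controls (SD, n = 5), and neither passed. The collagen receptor chain Itga1 differed by -0.75 with a wide error (SE 0.52). Itgae, the alpha chain of a receptor of mucosal lymphocytes and the only leukocyte chain above the floor, differed by 0.16 (SE 0.14). The differences of the other leukocyte chains lay at the floor of the scale and carry no order.

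**Figure D2:**
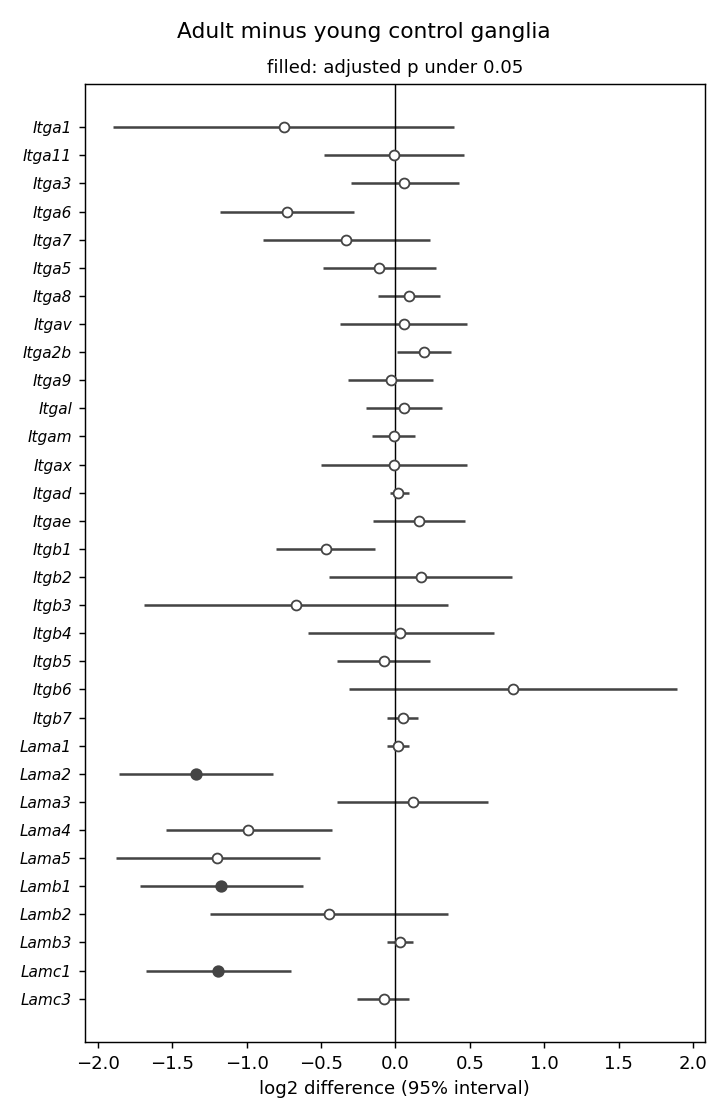
Points give the log2 difference of adult minus young control ganglia (horizontal axis) for each of the 32 members (vertical axis, grouped by role) with 95% intervals, and filled points mark adjusted p under 0.05. Lama2, Lamb1 and Lamc1 are filled and lie at -1.34, -1.17 and -1.19, and most integrins lie around 0.

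Other basement membrane genes were lower in adult controls as well. A list of 15 genes held partners of laminin in the basement membrane, its receptors outside the integrin family and Dmd, whose product lies inside the cell. Of these 13 were measured, and 5, Dmd among them, were lower and none higher in adults, where 2.67% of all genes were lower. The median log2 difference was -0.79. Nid2, a nidogen that links laminin to collagen IV, averaged 9.01 ± 0.48 in adult (SD, n = 6) and 10.56 ± 0.18 in young controls (SD, n = 5), a difference of -1.53 (SE 0.22, limma adjusted p = 0.00518). The collagen IV chains Col4a1 and Col4a2 differed by -1.21 (limma adjusted p = 0.0253) and -1.16 (limma adjusted p = 0.0396). Agrn, the heparan sulphate proteoglycan agrin, differed by -0.79 (limma adjusted p = 0.0126), and Dmd, the dystrophin gene, by -1.44 (limma adjusted p = 0.0442). Nid1 (-1.10, limma adjusted p = 0.121) and Hspg2, which encodes perlecan (-1.18, limma adjusted p = 0.101), did not pass.

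Of 17 other integrin ligands, 13 were measured and 2 passed in opposite directions, where 5.25% of all genes passed. Spp1, the secreted ligand osteopontin, was higher in adults, with 12.85 ± 0.17 in adult (SD, n = 6) and 11.73 ± 0.37 in young controls (SD, n = 5), a difference of 1.16 (SE 0.19, limma adjusted p = 0.00903). Postn, the matrix protein periostin, was lower by 3.00 on the log2 scale (SE 0.65, limma adjusted p = 0.0282), with a spread of 1.60 among the adult controls (SD, n = 6). Of 25 intracellular proteins that associate with integrins, 24 were measured and only Tln2, a talin that activates integrins, passed (-0.69, limma adjusted p = 0.0439). Leaving out 1 array at a time for these partners, a step chosen after seeing the data, Nid2 and Spp1 passed in all 16 fits, with adjusted p up to 0.0347 and 0.0313. Without young contralateral replicate 1 the others missed the threshold, with Agrn at an adjusted p of 0.0749, Col4a1 at 0.12, Col4a2 at 0.17, Dmd at 0.137, Postn at 0.141 and Tln2 at 0.213 in limma. Col4a2 and Tln2 passed in 6 of the 16 fits each and Dmd in 3.

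Markers of some other cells of the ganglion moved with age in the same direction. The mean of 4 measured myelinating Schwann cell markers was 11.82 to 12.95 in adult and 13.10 to 13.59 in young controls, without overlap. Of these only Mag, a myelin glycoprotein, passed (-2.34, limma adjusted p = 0.0442). Pmp22, Mbp and Prx differed by -0.40, -0.42 and -0.66 (limma adjusted p = 0.129, 0.157 and 0.146). The mean of 5 fibroblast markers was 11.13 to 12.79 in adult and 12.31 to 12.97 in young controls, and Col3a1, a fibrillar collagen, passed (-1.20, limma adjusted p = 0.0365). Col1a1, Dcn, Lum and Pdgfra were lower but did not pass, with limma adjusted p between 0.0728 and 0.597. Endothelial markers overlapped, at 7.50 to 8.56 in adult and 7.65 to 8.08 in young controls. The injured neuron markers were 5.17 to 6.57 in adult and 4.99 to 11.59 in young controls. In young contralateral replicate 2, where they were lowest, Lama2, Lamb1 and Lamc1 stood at 11.64, 12.26 and 11.71, above every adult control. Atf3, Sprr1a and Gal differed by -1.66, -3.61 and -2.83 between the ages (limma adjusted p = 0.308, 0.157 and 0.0597). The part of these cells and of the injury markers in the laminin difference was not tested.

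The laminin chains also varied together between pools of adult rats. In all 6 laminin chains above the floor, adult sham replicate 3 was the highest and contralateral replicate 1 the lowest of the 6 adult control arrays. Over the 18 members above the floor, sham replicate 3 was the highest in 13 (72.2%), against 31.6% of all such genes, and contralateral replicate 1 was the lowest in 10 (55.6%), against 21.1%. Fibroblast markers had the same extremes, with the highest mean in adult sham replicate 3 (12.79) and the lowest in adult contralateral replicate 1 (11.13), as did myelinating Schwann cell markers (12.95 and 11.82). Without adult sham replicate 3 the count of called members was 6, with Lama4, Lama5 and Itga6 added, and without either young SNI array it was 5, with Lama4 and Lama5 added.

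The age difference in the laminins held in some but not all subsets of the arrays. Without young contralateral replicate 1, which leaves that group with 1 array whose spread is taken from the other groups, 0 members were called, with Lama2 at -1.33 (limma adjusted p = 0.0636), Lamc1 at -1.17 (0.0787) and Lamb1 at -1.08 (0.129). Lamb1 also missed the threshold without adult sham replicate 1 or 2, adult contralateral replicate 1 or 2 or young sham replicate 2, with adjusted p between 0.0524 and 0.0668 in limma, and Lama5 passed without young sham replicate 3 (-1.43, limma adjusted p = 0.0201). With the sham groups alone the differences were -1.30 for Lama2 (limma adjusted p = 0.0977), -1.12 for Lamc1 (0.133) and -1.10 for Lamb1 (0.185). The young arrays with low Xist had levels above every adult control, with Lama2 at 11.68 and 11.82, Lamb1 at 12.60 and 12.79, and Lamc1 at 11.79 and 11.93 in contralateral replicate 1 and sham replicate 2. The part of sex in the age difference was not tested.

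After injury in adults, no integrin or laminin subunit passed the test. The counts were 0 of 32 against sham, against contralateral and against the mean of both, where 0.48%, 1.03% and 1.28% of all probe sets were called. These fits took the groups as independent and did not use the pairing of adult SNI with contralateral ganglia of the same rats. Unadjusted p was under 0.05 for 2, 8 and 8 of the 32, against 7.33%, 9.83% and 10.0% of all probe sets. The median log2 difference against the mean of controls was 0.37 over the laminin and 0.13 over the integrin subunits, against -0.02 over all genes.

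The member nearest the threshold was Itgb1, the beta chain shared by most matrix-binding integrins. It was 12.11, 12.43 and 12.59 in adult SNI arrays, against 11.31, 11.73 and 11.47 in adult contralateral and 11.78, 11.46 and 11.98 in adult sham arrays. All SNI arrays were above all 6 controls, as were those of 4.52% of genes. The log2 difference from the mean of controls was 0.75 (SE 0.17, limma adjusted p = 0.0721), or 1.69-fold. It was 0.87 against contralateral (SE 0.20, limma adjusted p = 0.0817) and 0.64 against sham (SE 0.20, limma adjusted p = 0.35).

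A further Itgb1 probe set was 12.14, 12.29 and 12.52 in adult SNI arrays, against 11.44, 11.61 and 11.57 in contralateral and 11.42, 11.50 and 11.90 in sham arrays. Its difference from the mean of controls was 0.74 (SE 0.15), of the same size but with a limma adjusted p = 0.0437. Itgb1 thus stood on either side of the threshold according to the probe set. It also passed with 3 of the 7 other ways of processing (the filter on low values, quantile normalisation and the mean of probe sets) and in 3 of the 16 fits without 1 array (adult SNI replicate 1 and either young SNI array), and its adjusted p ran between 0.0103 and 0.347 over its 23 alternatives.

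Lama5 was 4.80, 5.35 and 5.17 in adult SNI arrays, against 3.64, 3.88 and 4.14 in contralateral and 3.81, 3.89 and 4.98 in sham arrays. Only sham replicate 3 overlapped, and the difference was 1.05 (SE 0.36, limma adjusted p = 0.276). Its 2 further probe sets, at the floor in all arrays, showed no such difference.

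Itgb6, a beta chain of an epithelial receptor that activates TGF-beta, was 6.53, 6.47 and 5.47 in adult SNI arrays, against 7.89, 8.21 and 7.58 in contralateral and 7.09, 7.83 and 7.57 in sham arrays. All SNI arrays were below all controls, as were those of 3.04% of genes, and the difference was -1.54 (SE 0.58, limma adjusted p = 0.349). The error was set in part by young SNI, whose 2 arrays stood at 6.76 and 3.34: with either of them left out, that group adds no spread to the fit, and the same difference of -1.54 had a limma adjusted p = 0.0258.

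Itgb4 was 10.92, 11.76 and 11.95 in adult SNI arrays, against 10.23, 11.13 and 10.56 in contralateral and 10.96, 10.69 and 11.28 in sham arrays. The groups overlapped, and the difference was 0.73 (SE 0.33, limma adjusted p = 0.489). Against the contralateral ganglia of the same rats it was higher in all 3 pairs, by 0.69, 0.63 and 1.39. The limma adjusted p was 0.397 when arrays of an age with the same replicate number, sham arrays included, shared a block. Of the 18 members above the floor, 11 were higher than the contralateral array in all 3 pairs (61.1%) and 2 were lower in all 3 (11.1%), against 31.5% and 20.3% of all such genes. The contralateral ganglia were themselves below sham in 15 of these 18 members. Against sham, 12 of the 18 were above 0 in adult SNI and 6 below. Itga7 differed by 0.68 (SE 0.29, limma adjusted p = 0.466) with its chosen probe set and by 0.74 (SE 0.24, limma adjusted p = 0.238) with a further one, in which all SNI arrays were above all controls. The laminin chains that differed with age, Lama2, Lamc1 and Lamb1, differed by 0.44 (SE 0.27), 0.37 (SE 0.26) and 0.33 (SE 0.29) after injury.

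The other members above the floor did not pass in adults. Itga11, a collagen receptor chain that was near the floor in most arrays, was 2.88, 3.18 and 3.38 in adult SNI arrays, against 3.46 to 3.90 in adult controls. All SNI arrays were below all 6 controls, by a mean difference of -0.46 (SE 0.25, limma adjusted p = 0.629). Itgb3, the beta 3 chain of vitronectin receptors, varied widely between the control pools of adults, with 6.46 to 6.93 in adult SNI arrays, against 5.67 to 7.77 in adult controls. Itgb5, Itgae, Itga3 and Itgav differed by 0.03, 0.06, 0.17 and 0.21, with SE between 0.16 and 0.22. Itga1, Itga6, Lama4 and Lamb2 differed by -0.43 (SE 0.60), 0.28 (SE 0.24), 0.37 (SE 0.29) and 0.52 (SE 0.42). Of the members near the floor, Itga5, the fibronectin receptor chain, and Itgal, the alpha chain of the lymphocyte receptor LFA-1, stood above the other arrays only in adult SNI replicate 3, at 3.48 and 3.28.

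**Figure D3:**
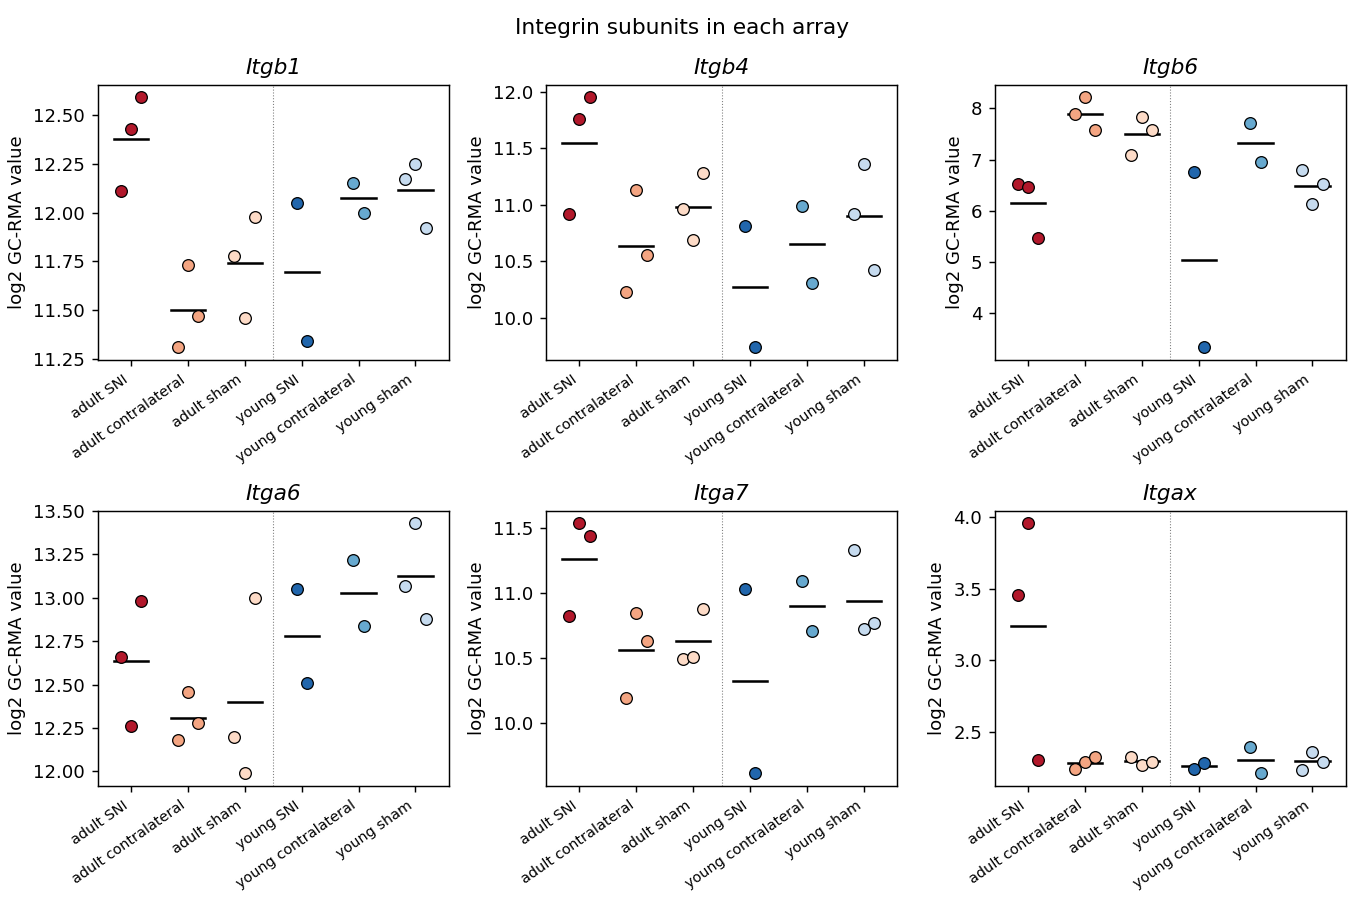
Each panel plots the log2 GC-RMA value (vertical axis) of an integrin subunit in each of the 16 arrays, by group (horizontal axis), with points for arrays and bars for group means. The adult SNI arrays lie above all adult controls in Itgb1 and below them in Itgb6, and young SNI replicate 2 is the lowest array in Itgb6, at 3.34.

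Leukocyte integrin chains other than Itgae lay near the floor in adult SNI ganglia, where the mean of the macrophage markers was higher than in controls. Itgax, the alpha chain of dendritic cells and some macrophages, was 3.46, 3.96 and 2.30 in adult SNI arrays, against 2.21 to 2.39 in all other arrays, a difference from the mean of adult controls of 0.95 (SE 0.26, limma adjusted p = 0.134). Without SNI replicate 3, in which it stayed at the level of the controls, the difference was 1.42 (limma adjusted p = 0.000213). Itgb2, the beta chain of leukocyte integrins, was 2.46, 2.85 and 3.75 in adult SNI arrays, against 2.17 to 3.02 in adult controls. Itgam, the alpha chain of the myeloid receptor CD11b, was between 2.54 and 3.03 in all 16 arrays. The mean of 8 macrophage markers was 6.80 to 7.44 in adult SNI, 4.95 to 5.24 in adult contralateral and 5.40 to 6.26 in adult sham arrays. Of the 8, only Cd68 passed (2.16 against the mean of controls, limma adjusted p = 0.0109), and it exceeded 4 in only 2 of the 16 arrays. The other macrophage markers had limma adjusted p between 0.0505 and 0.817. The part of macrophages in the integrin values was not tested.

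After injury in young rats, where the injured neuron markers did not separate SNI from control arrays, no member passed either. The counts were 0 of 32 against sham, contralateral and their mean, where 0.0161%, 0.00966% and 0.0226% of all probe sets were called, and unadjusted p was under 0.05 for 0, 1 and 1 members, against 5.91%, 5.94% and 7.86% of all probe sets. All 18 members above the floor had a difference below 0 from the mean of controls, with a median of -0.32, against -0.02 over all genes. Young SNI replicate 2, the array with genes of central nervous tissue, was the lowest of the 7 young arrays in 15 of these 18 members (83.3%), against 47.3% of all genes above the floor. Without that array 6 of the 18 were below 0, with a median of 0.04, and with it alone 16 of the 18 were below 0, with a median of -0.73. With replicate 2 as the only young SNI array, Itga7, Itgb2 and Itgb6 passed in limma against the mean of controls, together with 3881 of all probe sets.

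Itgb6 gave the largest young value among the members, with 6.76 and 3.34 in young SNI arrays, against 7.71 and 6.95 in contralateral and 6.79, 6.13 and 6.53 in sham arrays. The difference from the mean of controls was -1.86 (SE 0.69, limma adjusted p = 0.626), and it was -0.15 without replicate 2. Itgb1 was 12.05 and 11.34 in young SNI, against 12.15 and 12.00 in contralateral and 12.17, 12.25 and 11.92 in sham arrays, a difference of -0.40 (SE 0.21, limma adjusted p = 0.675) that was -0.04 without replicate 2. Lama2 was 11.77 and 11.07 in young SNI arrays, a difference of -0.33 (SE 0.33) with both and 0.02 without replicate 2.

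**Figure D4:**
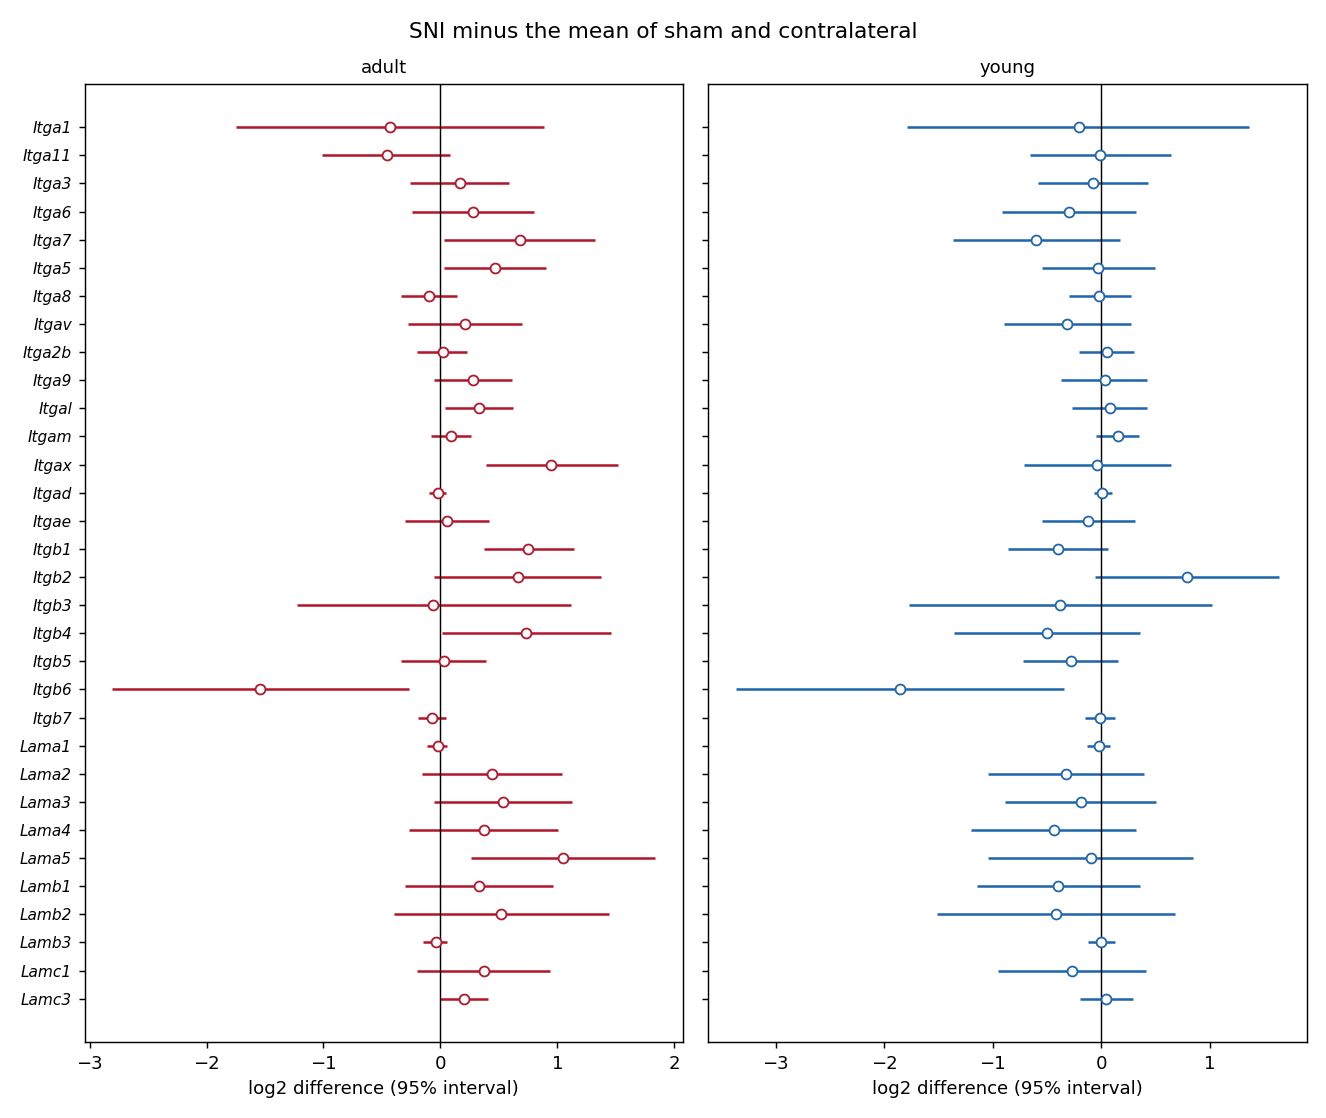
Points give the log2 difference of SNI minus the mean of sham and contralateral ganglia (horizontal axes, which differ in range) with 95% intervals for each of the 32 members (vertical axis), in adult rats on the left and young rats on the right. No point is filled, since no member passed the threshold, and Itgb1 lies at 0.75 in adult and -0.40 in young rats.

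The response to injury was not shown to differ between the ages for any member. The injured neuron markers were 11.37 to 11.81 in adult SNI, against 5.17 to 6.57 in adult controls, and 7.76 and 10.84 in young SNI, against 4.99 to 11.59 in young controls, and their part in this comparison was not tested. The test of the difference, adult response minus young response, called 0 of 32 members, against 0.0966% of all probe sets. Itgb1 had the smallest p, with a difference of 1.15 (SE 0.27, limma adjusted p = 0.207) that was 0.80 without young SNI replicate 2 (limma adjusted p = 0.627) and 1.51 without replicate 1 (limma adjusted p = 0.00507). Itga7 differed by 1.27 (SE 0.46, limma adjusted p = 0.557) and Itgb4 by 1.24 (SE 0.51, limma adjusted p = 0.602). Without young SNI replicate 2 these were 0.56 and 0.70 (limma adjusted p = 0.985 for both), and without replicate 1 they were 1.99 (limma adjusted p = 0.0097) and 1.77 (limma adjusted p = 0.078). The median over the 18 members above the floor was 0.61 with all arrays and 0.29 without young SNI replicate 2.

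Injured ganglia set directly against each other gave 0 of 32 members, against 2.64% of all probe sets. Itgb1 and Itgb4 were higher in all adult SNI than in all young SNI arrays, by 0.68 (SE 0.23, limma adjusted p = 0.135) and 1.27 (SE 0.43, limma adjusted p = 0.14), an order without overlap that 18.7% of genes shared. Lama2, Lamc1 and Lamb1, which were lower in adult controls, differed here by -0.57 (SE 0.35), -0.55 (SE 0.33) and -0.44 (SE 0.37). Without young SNI replicate 2 the differences were 0.33 for Itgb1, 0.73 for Itgb4, -0.92 for Lama2, -0.90 for Lamc1 and -0.88 for Lamb1, and none passed. Without replicate 1 Itgb1 and Itgb4 passed, at 1.04 (limma adjusted p = 0.0124) and 1.80 (limma adjusted p = 0.0292). Of the listed partners, Spp1 (1.94, limma adjusted p = 0.00723) and Zyx, the focal adhesion protein zyxin (0.82, limma adjusted p = 0.0479), were higher in adults. Without young SNI replicate 2 they differed by 1.49 (limma adjusted p = 0.0529) and 0.58 (limma adjusted p = 0.377), and Zyx missed the threshold in 13 of the 16 fits without 1 array. No gene of the 3 partner lists passed in any comparison of injured with control ganglia.

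The test did not separate the control groups of either age. Adult contralateral against adult sham and young contralateral against young sham each called 0 of 32 members and 0 probe sets in limma, and no member had an unadjusted p under 0.05, against 2.01% and 2.25% of all probe sets. In adults 15 of the 18 members above the floor were lower in contralateral than in sham ganglia, with a median log2 difference of -0.23, against -0.01 over all genes. In young rats 14 of the 18 were lower, with a median of -0.06.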

How the data were processed

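Total RNA of pooled L4/L5 DRG was hybridised to Affymetrix Rat Genome 230 2.0 arrays, and the authors normalised the scans with GC-RMA and deposited log2 intensities for 16 arrays. No scan was reprocessed, and array number and pool spread limit the precision. After 57 control probe sets were left out, limma 3.58.1 (R 4.3.3) was fitted to 31042 probe sets with 6 group means, and p-values were adjusted by Benjamini-Hochberg within each of 11 comparisons. Probe sets were named by the platform annotation: 20826 have 1 symbol, 436 several and 9780 none, and all 48 member probe sets matched RefSeq. The members and lists were chosen with earlier results of these data known. Named members are those past the threshold of 0.05 in any comparison and, per role, up to 3 with the smallest p. The labels do not give the litters, so p-values measure the spread between pools only.

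Ipsilateral and contralateral ganglia came from the same operated rats, and deviations of same-numbered adult SNI and contralateral arrays correlated at 0.449, 0.445 and 0.362. For same-numbered young arrays the correlation was 0.151. Young replicate 1 did not match in Xist, at 11.84 in the SNI and 2.35 in the contralateral array, so the replicate numbers do not establish pairs in young rats. Alternatives were each age fitted alone, another prior, a low-value filter, array weights, quantile normalisation, a replicate block, the mean of probe sets, sham groups alone and leaving out each array. The limma fit was tested on simulated data.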

Additional observations from a re-analysis of the deposited data

Results flagged for a closer look

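Lama3, the alpha 3 chain of epithelial laminins, stood above all sham arrays in adult SNI and below all sham arrays in young SNI, at levels near the floor, and passed in no comparison (adult SNI minus sham, limma adjusted p = 0.818). It was 3.39, 4.91 and 3.41 in adult SNI, against 3.35, 3.37 and 3.31 in adult sham arrays, and 2.92 and 3.19 in young SNI, against 3.27, 3.27 and 3.20 in young sham arrays. The responses differed by 0.75 on the log2 scale, a difference that was not tested for this contrast. Against the mean of both control groups it was 0.73 (SE 0.41, limma adjusted p = 0.68). Only adult SNI replicate 2 was above the log2 value of 4.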

How the results depend on the processing

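The count of members lower in adult than in young controls, 3 as reported, was 5 with a trended robust prior and with the mean of all probe sets of a gene, 6 with the filter on low values, with array weights and with quantile normalisation, and 0 with the sham groups alone. It was 3 with the replicate block, and the block changed no other call. That block also joined sham arrays, which came from other rats, and young arrays that did not match in Xist, so it was not a fit of the operated pairs alone. Adult SNI against contralateral gave 1 member with array weights and 1 with quantile normalisation, and against the mean of controls 1 with the filter, 1 with quantile normalisation and 1 with the mean of probe sets, each time Itgb1 in the comparison with the mean. Leaving out each array in turn gave 0 to 6 members for age in controls, 0 to 1 for adult SNI against sham, 0 to 2 against contralateral and against the mean of controls, 0 to 3 in each of the young injury comparisons, 0 to 5 between injured ganglia, 0 to 3 for the difference in response and 0 between the control groups. Without young SNI replicate 1, which leaves the array with central nervous tissue genes as its only array, the counts were 3 in each young comparison, 5 between injured ganglia and 3 for the difference in response; without replicate 2 these were 0. No value among the 21 named results, each a member in a comparison, changed sign: of 474 alternatives, 429 stayed on the same side of the threshold, 34 moved past it and 11 lost it. The results were chosen by their p in these same data, and leaving out an array outside a comparison cannot move its difference, so this tally does not measure how well they would repeat. With 2 or 3 pools a group the number of arrays limits the precision, and levels near the floor carry no order.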
